A study of Mus musculus with 8 samples.

Results

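The reactive astrocyte genes are 34 genes that published profiles of mouse astrocytes associate with reactivity after injury or inflammation. They were located on the arrays by gene name alone. The list itself was chosen with earlier results of these data known, so a shared direction of its genes is no independent evidence. Of the 30139 distinct gene names on the array, 34 matched, on 50 probes. The genes fall into 10 pan-reactive members, 6 inflammation-type members first described after endotoxin, 10 ischaemia-type members first described after arterial occlusion, and 8 other members often used as reactivity genes. A signal well above background was found for 26 of the 34, and the remaining 8 were too dim to measure.

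Astrocytes support synapses, clear glutamate and potassium, and meet the vessels of the hippocampus with their end feet. On injury or cytokine exposure they enlarge, build up intermediate filaments made of the proteins of Gfap and Vim, and switch on secreted acute-phase, matrix and immune genes. The best known inputs are cytokines of the interleukin-6 family that signal through gp130 and STAT3, and microglial signals that act through NF-kB. Many of these genes are also expressed by microglia, endothelial cells, fibroblasts or leukocytes, so a level in whole tissue is not a level in astrocytes. In bulk RNA, fewer cells of a type and less RNA per cell cannot be told apart.

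Whole hippocampi of C57BL/6 mice were compared between 2 genotypes. The wild-type group (WT) carried Ctcf loxP/loxP without Cre, and the conditional knockout group (CKO) carried Ctcf loxP/loxP;Camk2a-Cre. Ctcf encodes a zinc-finger protein that organises chromatin loops, and Camk2a-Cre is active in excitatory forebrain neurons, so astrocytes are not the cells in which the floxed gene is deleted. Both genotypes had the floxed alleles, only CKO had Cre, and a Cre-carrying group without floxed alleles was not analysed here. Each genotype had 3 pools of 3 mice, and all mice had been through a behavioural battery. Pool 1 held 2 females and 1 male of 19 to 23 weeks, pool 2 held 3 females of 18 to 19 weeks, and pool 3 held 3 males of 15 to 17 weeks, in both genotypes. Sex, age and pool number therefore go together. Pool 1 of each genotype was measured on 2 arrays, which were averaged, giving 8 arrays in all. Slide 1 carried pool 2 of both genotypes with the first array of each pool 1, and slide 2 carried pool 3 of both genotypes with the repeat array of each pool 1.

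The share of spots well above background was 59.2% to 66.0% an array, and the number of saturated spots was 0. The second array of WT pool 1 stood apart, with the lowest median signal of the 8 (272 intensity units against 370 to 600 on the others), and values without it stand beside the results where it changes a call, a sign, an overlap or much of a difference. The number of arrays limits the precision. Levels below are log2 signals relative to the 75th percentile of the array, so 0 is the level of that percentile, and differences are CKO minus WT. Ctcf read 0.83, 1.12 and 1.04 in WT pools 1 to 3 and 0.18, 0.16 and 0.05 in CKO pools 1 to 3. The Ctcf difference of -0.87 (SE 0.13, n = 3 pools a genotype) had an adjusted p of 0.143 in limma with Benjamini-Hochberg adjustment over all genes, and of 0.0294 with the pool number as a block. Without the block it passed at 0.00414 when the second array of WT pool 1 was left out, and at 0.00667 with the first arrays alone.

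Most measured reactive astrocyte genes were higher in CKO, by amounts that did not pass the test when pools were treated as unpaired. By mean difference, 22 of the 26 measured members were higher, against 49.4% of the 18335 genes tested, and 4 were lower, against 50.6%. The median difference of the 26 was 0.27, against -0.0031 over all genes. Some genes pass the filter through 1 genotype alone, which favours a higher reading in that genotype. Iigp1, Cd109 and Thbs1 passed through CKO alone. Over the 23 members well above background on all arrays, 19 were higher with a median of 0.26. The 4 members with lower means were Cd44, Fkbp5, Sphk1 and Synm. None of the 26 passed an adjusted p of 0.05 in limma, where 5 of all genes (0.0273%) were called higher and 0 (0.00%) lower. Without adjustment, p was below 0.05 for 7 members with higher means and 0 with lower means, against 2.91% and 2.56% of all genes.

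The same 7 members, Gfap, Timp1, Hspb1, Cp, Emp1, Chi3l1 and Sbno2, had every CKO pool above every WT pool, a pattern that 5.73% of all genes showed. Cd44 was the single measured member with every CKO pool below every WT pool, a pattern of 5.62% of all genes. Comparing CKO with WT of the same pool number, 13 members were higher in 3 of 3 comparisons, against 14.1% of all genes, and 3 members (Cd44, Fkbp5 and Sphk1) were lower in 3 of 3, against 13.9%. The 13 include Iigp1 and Cd109, which passed the filter through CKO alone. Of the 23 members well above background on all arrays, 11 were higher in 3 of 3 and 3 lower. With the pool number as a block, limma called 72 genes higher (0.393%) and 31 lower (0.169%). Among the called were 2 members, Timp1 and Gfap, both higher. The counts above were also taken without the second array of WT pool 1, a check added after the data were seen. Then 22 members were higher (54.6% of all genes), 8 were higher and 0 lower at an unadjusted p below 0.05 (8.65% and 8.19%), and 8 had every CKO pool above every WT pool (11.9%). Hspb1 left that last set and S1pr3 and Tm4sf1 joined it, and Cd44 remained the 1 member with every CKO pool below (11.9%). In 14 members CKO was higher in 3 of 3 pool numbers (25.0%), with S1pr3 and Nes added and Iigp1 lost, and in 2, Cd44 and Fkbp5, it was lower in 3 of 3 (23.0%).

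The blocked calls of Timp1 and Gfap were both lost when the second array of WT pool 1 was left out of that fit (40 genes called higher, 0.218%), with adjusted p of 0.0574 for Timp1 and 0.0842 for Gfap. They were also lost with the first arrays alone (0.0600 and 0.0789). With quantile normalization Timp1 was lost (0.0528), and without probes that hold a GAA repeat, none of which reads a member, Gfap was lost (0.0583).

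**Figure D1:**
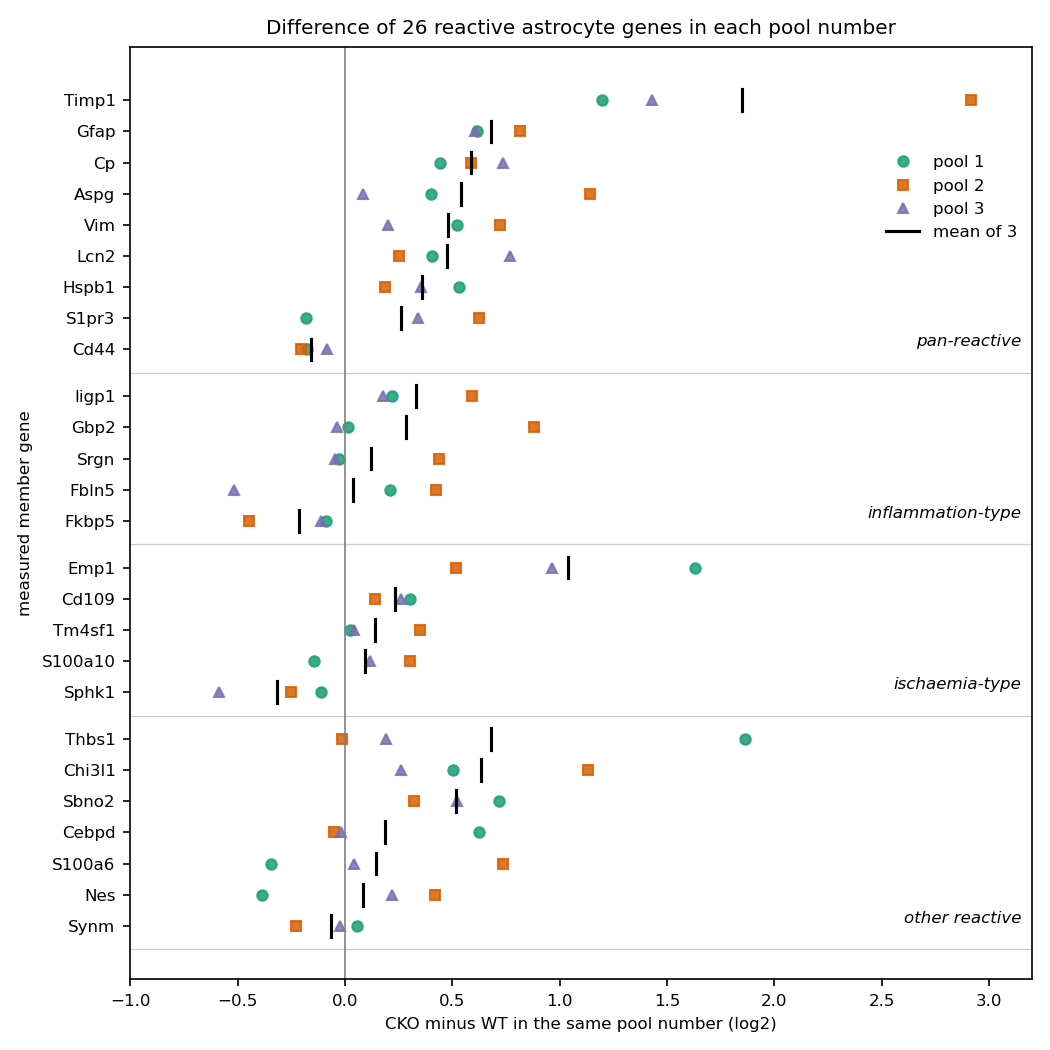
Difference of each of the 26 measured members, CKO minus WT in the same pool number, in log2 units on the horizontal axis. Symbols mark pools 1, 2 and 3, black bars their mean, and genes are grouped by class. Timp1 has the largest mean, 1.85, and its pool 2 difference of 2.92 lies apart from the other two.

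The classes differed in their medians, and the difference between classes was not tested. The 9 measured of 10 pan-reactive members had a median difference of 0.48, with 8 higher. In pool numbers 1, 2 and 3 their median was 0.44, 0.62 and 0.35. The 5 measured of 6 inflammation-type members had a median of 0.12, with 4 higher, and medians of 0.02, 0.44 and -0.05 in the 3 pool numbers. This class was thus above 0 mainly in the all-female pool 2. The 5 measured of 10 ischaemia-type members had a median of 0.14, with 4 higher, and medians of 0.02, 0.30 and 0.12. The 7 measured of 8 other members had a median of 0.19, with 6 higher, and medians of 0.50, 0.32 and 0.19. Without the second array of WT pool 1 the 4 medians were 0.57, 0.15, 0.16 and 0.25. Over the members well above background on all arrays they were 0.48, 0.08, 0.12 and 0.17. Within slide 1 the pan-reactive, inflammation-type, ischaemia-type and other medians were 0.50, 0.29, 0.15 and 0.28, and within slide 2 they were 0.48, -0.07, -0.025 and 0.36. Over all genes the medians were -0.04, 0.05 and -0.03 in pool numbers 1, 2 and 3.

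**Figure D2:**
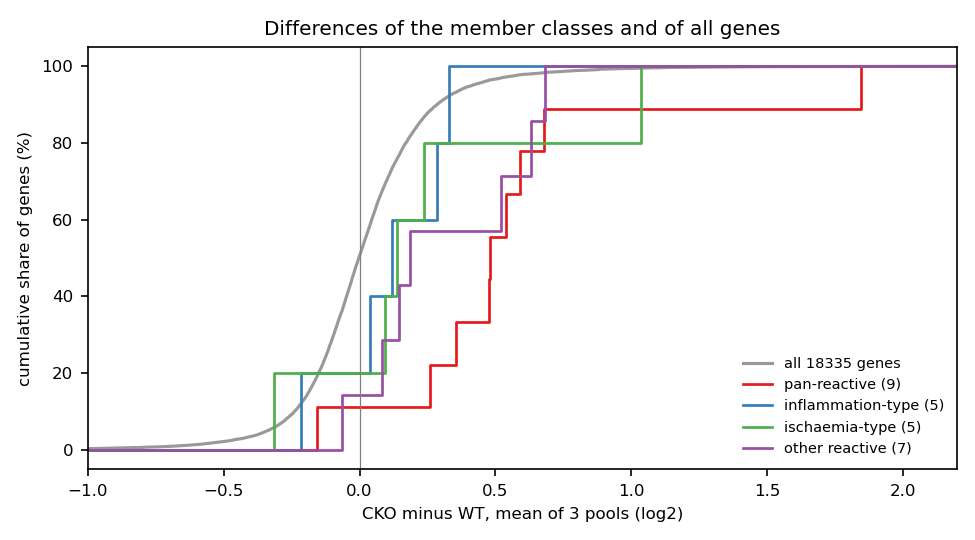
Cumulative share of genes, in percent, against the log2 difference CKO minus WT (mean of 3 pools), for all 18335 tested genes and for the measured members of each class. The pan-reactive curve lies right of the grey curve, with a median of 0.48 against -0.0031, while the inflammation-type and ischaemia-type medians are 0.12 and 0.14.

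Promoters were searched for the motifs of transcription factors known in astrocyte reactivity and for a CTCF core, as a description of these windows. RefSeq windows on GRCm38.p6, from 250 bases before to 50 bases after a transcript start, were given for 27 of the 34 members (38 windows). A STAT match, TTCNNNGAA on either strand, was present for 6 of the 27 members against 9.55% of all genes with a window. An AP-1 match, TGANTCA, was present for 4 members (8.97% of all genes), and a C/EBP match, TTGCNNAA, for 7 (12.2%). An NF-kB match was present for 7 (9.55%), and a CTCF core match, CCA NN AG NN GGC, for 1, S100a6 (2.82%). The members with a STAT match were Gfap, Emp1, Sbno2 and Sphk1 among the measured, of which Sphk1 had a lower mean in CKO, and Steap4 and Tgm1 among the dim. A match is a run of letters and not a site in use.

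Windows of 4 members follow, picked from the 7 with every CKO pool above every WT pool so as to show both outcomes of the search. Of the others, Cp had an AP-1 match in 1 window and C/EBP in another, without STAT. Hspb1 had none of the motifs, and Chi3l1 had no window. Letters are lower case, with motif matches in capitals, 5′ to 3′ on the strand of the gene, and positions count the start base as 0. Gfap, at chr11:102897151-102897450 on the minus strand, has a STAT match at -2. Emp1, at chr6:135362681-135362980 on the plus strand, has AP-1 at -145, STAT at -120, and AP-1 at -25 overlapping STAT at -22. A second Emp1 window in the table holds none of the motifs. Sbno2, at chr10:80101138-80101437 on the minus strand, has a STAT match at -24. Of the other Sbno2 windows, 1 has a STAT match at -26 and 1 an NF-kB match alone. For Emp1 and Sbno2 a window with a STAT match was chosen for display. Timp1, at chrX:20869916-20870215 on the plus strand, holds none of the 5 motifs.
Gfap: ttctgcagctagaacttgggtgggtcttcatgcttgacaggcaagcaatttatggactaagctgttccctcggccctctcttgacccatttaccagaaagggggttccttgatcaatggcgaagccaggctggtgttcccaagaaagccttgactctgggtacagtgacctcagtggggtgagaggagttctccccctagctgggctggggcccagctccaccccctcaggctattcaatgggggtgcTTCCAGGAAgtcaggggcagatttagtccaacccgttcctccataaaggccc
Emp1: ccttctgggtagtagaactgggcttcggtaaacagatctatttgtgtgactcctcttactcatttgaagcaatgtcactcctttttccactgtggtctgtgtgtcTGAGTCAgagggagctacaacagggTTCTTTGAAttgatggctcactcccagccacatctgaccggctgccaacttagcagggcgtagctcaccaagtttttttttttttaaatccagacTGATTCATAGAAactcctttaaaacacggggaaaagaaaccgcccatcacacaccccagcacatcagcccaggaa
Sbno2: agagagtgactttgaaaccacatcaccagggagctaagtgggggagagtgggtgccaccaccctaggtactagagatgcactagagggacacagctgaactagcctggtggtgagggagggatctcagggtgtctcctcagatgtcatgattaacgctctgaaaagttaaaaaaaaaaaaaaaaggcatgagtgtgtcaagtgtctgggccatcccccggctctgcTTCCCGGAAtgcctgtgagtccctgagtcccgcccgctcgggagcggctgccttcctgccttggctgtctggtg
Timp1: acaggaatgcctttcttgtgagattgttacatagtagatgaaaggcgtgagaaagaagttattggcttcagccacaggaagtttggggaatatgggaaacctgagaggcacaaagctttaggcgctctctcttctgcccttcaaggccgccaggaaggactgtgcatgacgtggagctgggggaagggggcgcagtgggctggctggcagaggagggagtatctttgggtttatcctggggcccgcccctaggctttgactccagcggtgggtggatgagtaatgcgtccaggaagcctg

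Among the pan-reactive members, the filament genes come first. Gfap, the intermediate filament protein used as the standard mark of reactive astrocytes, read 1.94, 2.37 and 2.16 in WT pools 1 to 3 and 2.56, 3.19 and 2.77 in CKO. The lowest CKO pool lay above the highest WT pool. With both arrays of pool 1 averaged, the difference was 0.62, 0.81 and 0.61 in pool numbers 1 to 3. The 2 arrays of WT pool 1 read 2.26 and 1.63, so against the first alone the difference in pool number 1 was smaller. The mean difference was 0.68 (SE 0.18, n = 3 pools a genotype), a 1.60-fold level, with an adjusted p of 0.506 in limma and 0.0464 with the pool number as a block. Within slide 1 the difference was 0.61, within slide 2 it was 0.72, and without the second array of WT pool 1 it was 0.57.

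Gfap was read by 3 probes, and in each of them CKO was above WT in every pool number. Its brightest probe, used above, gave the smallest difference, and the other two gave 0.91 (SE 0.20) and 1.08 (SE 0.25). Synm, whose protein co-assembles with vimentin and Gfap filaments, had 4 measured probes with differences from -0.18 to 0.22. Its probes had both signs, and its brightest probe gave -0.06 (SE 0.13). Thus Gfap probes were of 1 sign and Synm probes were not.

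**Figure D3:**
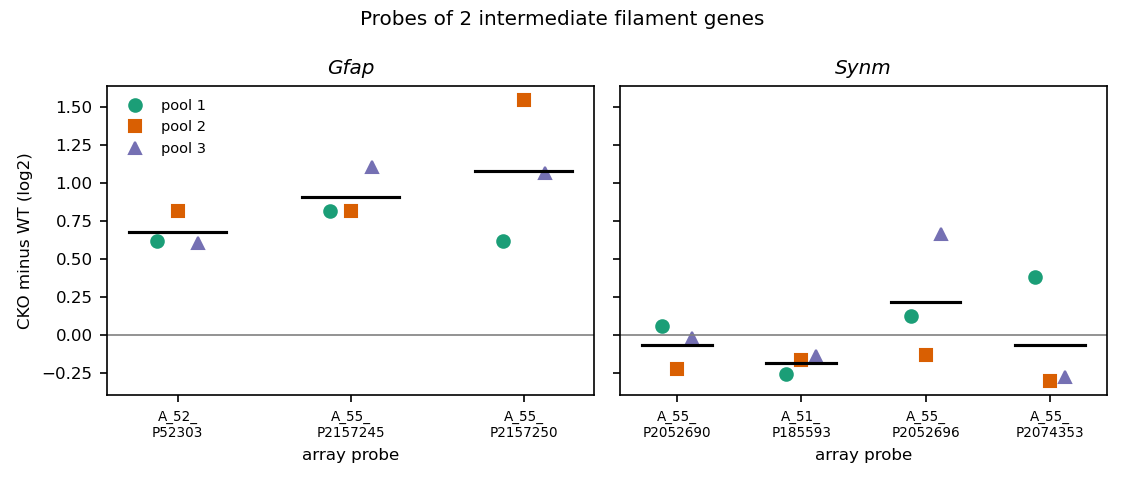
Log2 difference CKO minus WT for each measured probe of Gfap (3 probes) and Synm (4 probes), with symbols for pools 1, 2 and 3 and a bar for their mean. Every Gfap point lies above 0, with means of 0.68, 0.91 and 1.08, while the Synm means run from -0.18 to 0.22.

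Vim, the intermediate filament partner of Gfap, read 0.59, 1.20 and 1.00 in WT and 1.11, 1.92 and 1.20 in CKO. Each CKO pool was above WT of its number, but CKO pools 1 and 3 did not exceed WT pool 2, so the groups overlapped. The difference was 0.48 (SE 0.24), with an adjusted p of 0.981 in limma. The 2 arrays of WT pool 1 read 1.04 and 0.14 for Vim, and without the second the difference was 0.33. Nes, a filament gene of neural progenitors that reactive astrocytes can re-express, read 0.35, -0.70 and -0.33 in WT and -0.04, -0.28 and -0.12 in CKO. WT spanned the whole CKO range, and the difference was 0.08 (SE 0.25). The 2 arrays of WT pool 1 read -0.17 and 0.86, and without the second the difference was 0.25 and WT no longer spanned the CKO range.

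The secreted pan-reactive members follow. Timp1, an inhibitor of matrix metalloproteinases, read -3.00, -3.39 and -3.51 in WT and -1.80, -0.47 and -2.08 in CKO. All CKO pools were above all WT pools, with CKO pool 2 well above the other two. The difference was 1.85 (SE 0.39), a 3.60-fold level and the largest mean difference among the measured members, with an adjusted p of 0.253 in limma and 0.0271 with the pool number as a block. It was 1.36 without CKO pool 2, 2.11 within slide 1 and 1.26 within slide 2. It was 1.94, with an adjusted p of 0.05003, without the second array of WT pool 1.

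Cp encodes ceruloplasmin, the copper-carrying ferroxidase. It read -0.21, -0.58 and -0.73 in WT and 0.24, 0.00 and 0.01 in CKO, without overlap. The difference was 0.59 (SE 0.17), or 1.50-fold, with an adjusted p of 0.577 in limma, and the 3 pool numbers gave 0.44, 0.59 and 0.74.

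Lcn2, a siderophore-binding lipocalin also abundant in neutrophils, read 0.30, -1.06 and -2.10 in WT and 0.71, -0.81 and -1.33 in CKO. Both genotypes were highest in pool 1 and lowest in pool 3, so the groups overlapped widely while each CKO pool was above WT of its number. The difference was 0.48 (SE 0.65), with an adjusted p of 0.999 in limma and 0.409 with the block. The 2 arrays of WT pool 1 read -0.29 and 0.89 for Lcn2, and without the second the difference was 0.67. S100a9, a neutrophil gene from the leukocyte list, had the same order of pools, with -0.69, -1.76 and -3.37 in WT and -0.34, -1.42 and -2.75 in CKO. S100a8 of that list also had this order in both genotypes. Its other measured genes, Mrc1, Lyve1, Ms4a7, Ptprc and Cd3e, did not, and Ptprc and Ms4a7 were highest in pool 2 in CKO. The part of leukocytes in the Lcn2 values was not tested.

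The remaining pan-reactive members were intracellular or at the surface. Hspb1, a small heat shock protein, read 0.80, 0.85 and 0.95 in WT and 1.33, 1.04 and 1.31 in CKO, without overlap. Its difference was 0.36 (SE 0.13), or 1.28-fold, with an adjusted p of 0.804 in limma. The first array of WT pool 1 alone read 1.12, above CKO pool 2, so without the second array the groups overlapped. Aspg, an asparaginase, read 0.35, -0.56 and -0.15 in WT and 0.76, 0.58 and -0.07 in CKO, with overlap. The difference of Aspg was 0.54 (SE 0.28) and ranged from 0.08 in pool number 3 to 1.14 in pool number 2. The 2 arrays of WT pool 1 read -0.06 and 0.77 for Aspg, so against the first alone the difference in pool number 1 was larger. Without the second, Aspg was among the members higher at an unadjusted p below 0.05 in limma, and its groups still overlapped.

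S1pr3, a receptor for sphingosine-1-phosphate, differed by 0.26 (SE 0.23). The 2 arrays of WT pool 1 read -1.35 and -0.30, and CKO was lower in pool number 1 (-0.18) with both averaged. Without the second of them the S1pr3 difference was 0.44, with every CKO pool above every WT pool. Cd44, the hyaluronan receptor, read -2.44, -2.40 and -2.60 in WT and -2.62, -2.61 and -2.69 in CKO. The CKO pools were all lower, but the difference was only -0.16 (SE 0.17). A second, dimmer Cd44 probe gave 0.48 (SE 0.40), and the mean of both probes was 0.16. That probe was well above background on 2 WT and 4 CKO arrays. It passed the filter through CKO alone, which favours a higher CKO reading, so it does not settle the sign.

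**Figure D4:**
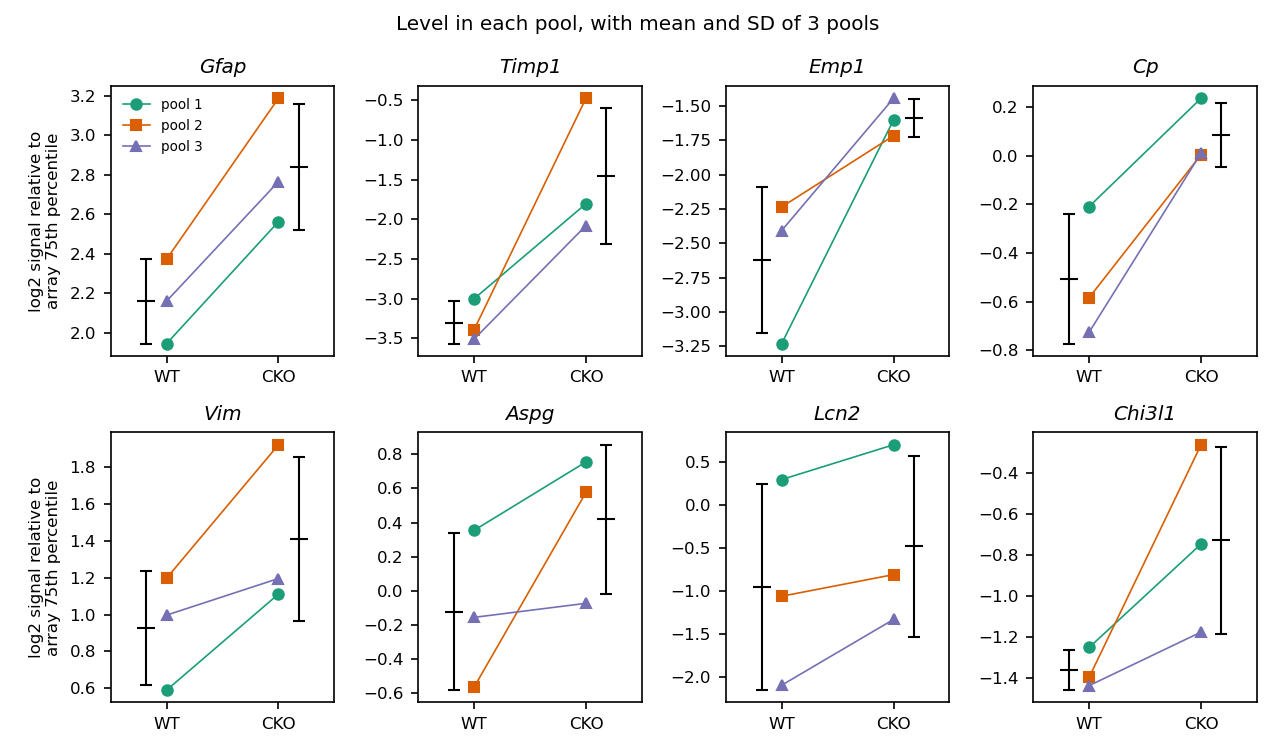
Log2 signal relative to the array 75th percentile for 8 members, 1 panel each with its own vertical scale, with lines joining WT and CKO of the same pool number and bars giving the mean and SD of 3 pools. Gfap, Timp1, Emp1, Cp and Chi3l1 have no CKO pool at or below a WT pool, while Vim, Aspg and Lcn2 overlap, and Lcn2 follows the pool number in both genotypes.

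The inflammation-type members had medians near 0 outside pool number 2. Gbp2, an interferon-induced guanylate-binding protein, read -0.59, -1.01 and -1.34 in WT and -0.58, -0.13 and -1.38 in CKO. Its difference was 0.02 in pool number 1, 0.88 in pool number 2 and -0.04 in pool number 3. The 2 arrays of WT pool 1 read -0.83 and -0.36, so against the first alone the difference in pool number 1 was larger. With both averaged, the mean difference was 0.29 (SE 0.32), and 0.0047 without CKO pool 2.

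Iigp1, an interferon-inducible GTPase, was highest in CKO pool 2 (-3.25, against -4.09 to -3.73 in the other pools), with a difference of 0.33 (SE 0.24), or 0.22 without the second array of WT pool 1. Its signal cleared background on all CKO arrays and on 3 of the 4 of WT. Srgn, a granule proteoglycan of blood-derived cells, differed by 0.12 (SE 0.14), from -0.05 in pool number 3 to 0.44 in pool number 2. Fbln5, an elastic-fibre protein, differed by 0.04 (SE 0.19), with opposite signs in pool numbers 2 (0.43) and 3 (-0.52). Fkbp5, a co-chaperone of the glucocorticoid receptor, was lower in CKO in each pool number, with a difference of -0.22 (SE 0.22). The adjusted p of each of these 5 members was 0.999 in limma. Ggta1, a galactosyltransferase, was well above background on 0 arrays.

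Among the ischaemia-type members the largest difference was that of Emp1, which encodes a tetraspan epithelial membrane protein. Emp1 read -3.23, -2.24 and -2.41 in WT and -1.60, -1.72 and -1.44 in CKO. The CKO pools were close together and above all WT pools, and WT pool 1 was the lowest of the 6. The difference was 1.04 (SE 0.27), a 2.05-fold level, with an adjusted p of 0.433 in limma and 0.0892 with the pool number as a block. The 2 arrays of WT pool 1 read -2.61 and -3.86. With the first arrays alone the difference was 0.93 and its adjusted p of 0.0425 passed (67 genes called higher, 0.365%). It was 0.83, with an adjusted p of 0.05003, when the second array of WT pool 1 was left out (61 called higher, 0.333%). Within slide 1 it was 0.91 and within slide 2 it was 1.47.

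The other 4 measured ischaemia-type members had smaller differences, each with an adjusted p of 0.999 in limma. Cd109, a GPI-anchored co-receptor of TGF-beta, was higher in CKO in each pool number, by 0.24 (SE 0.22), with a signal above the background limit on 3 of the 4 arrays of WT. Tm4sf1, a tetraspan membrane protein also found in endothelium, differed by 0.14 (SE 0.14), or 0.22 without the second array of WT pool 1, and S100a10, the partner of annexin A2, by 0.09 (SE 0.14). Sphk1, the kinase that makes sphingosine-1-phosphate, was lower in CKO in each pool number. Sphk1 read 0.44, -0.19 and 0.19 in WT and 0.33, -0.44 and -0.39 in CKO, a difference of -0.32 (SE 0.24). The Sphk1 difference was -0.19 without the second array of WT pool 1, with CKO no longer lower in pool number 1, and -0.059 within slide 1. A second Sphk1 probe gave -0.05 (SE 0.24).

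The remaining 5 ischaemia-type members were dim. Ptx3, a long pentraxin, and Slc10a6, a steroid sulfate transporter, were well above background on 0 arrays of either genotype. Clcf1, a gp130 cytokine, was well above background on 1 WT and 3 CKO arrays, and B3gnt5, a glycosyltransferase, on 1 WT and 0 CKO arrays. Tgm1, a transglutaminase, was well above background on 0 WT arrays and on 1 CKO array, that of pool 2.

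Of the other reactivity genes, Chi3l1 and Sbno2 had CKO pools above all WT pools. Chi3l1, a secreted chitinase-like protein, read -1.25, -1.40 and -1.44 in WT and -0.75, -0.26 and -1.18 in CKO. Its difference was 0.63 (SE 0.23), or 1.55-fold, with an adjusted p of 0.804 in limma, and was largest in pool number 2 (1.13, against 0.50 and 0.26). Sbno2, a transcriptional coregulator downstream of STAT3, read -2.16, -2.13 and -2.44 in WT and -1.44, -1.81 and -1.92 in CKO. Its difference was 0.52 (SE 0.20), or 1.43-fold, with an adjusted p of 0.820 in limma.

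Thbs1, a synapse-promoting matrix protein, differed by 0.68 (SE 0.35), but this rested on pool number 1 (1.86, against -0.01 and 0.19). Its WT pool 1 level was -5.05, with -4.60 and -5.51 on the 2 arrays, and the difference was 0.37 without WT pool 1. Cebpd, a transcription factor of the acute-phase response, differed by 0.19 (SE 0.18), again with pool number 1 apart (0.63, against -0.05 and -0.02). The 2 arrays of WT pool 1 read 0.38 and -0.49 for Cebpd, and without the second the difference was 0.041. S100a6, a calcium-binding protein, differed by 0.15 (SE 0.27), with -0.34 in pool number 1 and 0.74 in pool number 2, and by 0.24 without the second array of WT pool 1.

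Cxcl13, a B-cell chemokine, was well above background on 1 array, that of CKO pool 2, where it read -2.02 against -7.36 to -6.38 in the other 5 pools. Steap4, a pan-reactive metalloreductase, was well above background on 0 arrays.

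Further genes of the same panels and of the inducing signals were read from lists compiled for comparison, also with earlier results of these data known. All 10 measured of 11 further panel genes had higher means in CKO, where 49.4% of all genes did, with a median difference of 0.39. None passed in limma without the block (0.0273% of all genes called higher) and 2 passed with it (0.393%), both higher. Serpina3n, a serine protease inhibitor and common mark of reactive astrocytes, read -2.78, -1.54 and -2.68 in WT and -1.34, 0.09 and -1.25 in CKO. The CKO pools were above all WT pools, by a mean of 1.50 (SE 0.45), or 2.83-fold, with an adjusted p of 0.589 in limma and 0.00627 with the pool number as a block. Cd14, the endotoxin co-receptor found mainly on myeloid cells, differed by 1.07 (SE 0.25), with an adjusted p of 0.311 and of 0.0215 with the block. Osmr, the receptor of oncostatin M, differed by 0.78 (SE 0.15), with 0.192 and 0.0838. The 2 arrays of WT pool 1 read -2.27 and -3.28 for Serpina3n. For genes of the lists other than the members, blocked values without the second of these arrays were not read.

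Of 23 inducing-signal genes, 17 were measured and 14 of these had higher means (49.4% of all genes), with a median of 0.16. Of its cytokine genes, Il1a, Il1b, Tnf, Il6 and Lif were well above background on 0 arrays. Tgfb1, Cntf and Osm were measured, with differences of 0.39 (SE 0.28), 0.25 (SE 0.22) and 0.16 (SE 0.26). Socs3, the STAT3-induced feedback inhibitor of gp130 signalling, differed by 1.11 (SE 0.26), with -1.70, -2.00 and -1.89 in WT and -0.19, -1.25 and -0.80 in CKO. It had an adjusted p of 0.327 in limma and was the single gene of this list that passed with the block (0.393% of all genes called higher), at 0.0316. Nfkb1, an NF-kB subunit, differed by 0.46 (SE 0.18), and C1qa, a complement gene of microglia, by 0.56 (SE 0.27). Neither passed in either fit. C1qa read 3.14 and 4.09 on the 2 arrays of WT pool 1, and with the first alone every CKO pool was above every WT pool.

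Marker genes of resting astrocytes had differences of both signs. Of 14 astrocyte markers, all measured, 6 had higher and 8 lower means, with a median of -0.02 and differences from -0.22 to 0.22. Their summed level, in multiples of the array 75th percentile, was 171 to 202 in WT and 169 to 191 in CKO. The lowest difference was that of S100b (-0.22, SE 0.14) and the highest that of Slc7a10 (0.22, SE 0.15). The labelled tissue thus held astrocyte markers in every pool.

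By their median, microglial markers differed most in pool number 2. Of 12, all measured, 8 had higher means, with a median of 0.24 and medians of -0.02, 0.73 and -0.03 in pool numbers 1 to 3. Their summed level was 63.2 to 98.7 in WT, highest in pool 1 with both arrays averaged, and 72.9 to 97.2 in CKO. C1qc read 2.36, 2.23 and 2.09 in WT and 2.64, 3.25 and 2.33 in CKO, with a difference of 0.52 (SE 0.22), and Tyrobp and C1qb differed by 0.52 and 0.53. The 2 arrays of WT pool 1 read 1.96 and 2.41 for Tyrobp and 2.76 and 3.61 for C1qb. With the first array alone, every CKO pool was above every WT pool for Tyrobp and C1qb, while C1qc still overlapped. CKO pool 2 was also the highest of the 6 pools for Gfap, Vim, Timp1, Iigp1, Gbp2, Srgn, S100a10, Chi3l1, S100a6 and the dim Cxcl13 and Tgm1. The part of microglia in these values was not tested, and the share of all genes highest in CKO pool 2 was not counted.

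Endothelial markers had a median difference of 0.02 (6 of 8 higher, summed level 26.2 to 32.1 in WT and 29.7 to 31.3 in CKO). Mural and fibroblast markers had a median of -0.01 (4 of 9 higher, summed level 32.5 to 49.5 in WT and 31.3 to 40.9 in CKO). Border macrophage and leukocyte markers had a median of 0.0095 over 7 measured of 10 (4 higher, summed level 1.06 to 2.32 in WT and 1.12 to 2.27 in CKO), with Cd163 and Ccr2 well above background on 0 arrays. Choroid plexus markers were higher in 10 of 10, with a median of 0.87, but with medians of 2.27, 0.59 and -0.31 in pool numbers 1 to 3. Their summed level was 31.8 in WT pool 1, against 61.5 to 99.0 in the other 5 pools. WT pool 1 was also the lowest of the 6 for Gfap, Vim, Hspb1, Cd109, Emp1, Cebpd and Thbs1. For Gfap, Vim and Hspb1 this rested on the second array, since the first read 2.26, 1.04 and 1.12, each above WT pool 3. The part of tissue from the choroid plexus in these values was not tested, and the share of all genes lowest in WT pool 1 was not counted.

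**Figure D5:**
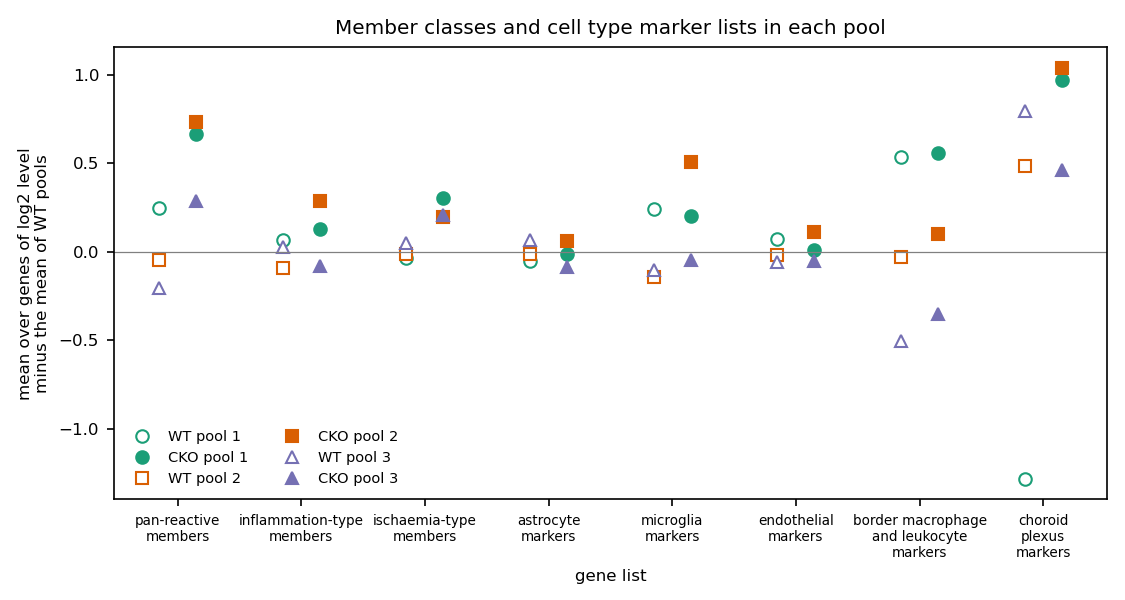
Mean over the genes of each list of the log2 level minus the mean of the WT pools, for each pool (open symbols WT, filled symbols CKO). Pan-reactive members lie at 0.67, 0.74 and 0.29 in CKO pools 1 to 3 against 0.25, -0.05 and -0.20 in WT, astrocyte markers lie near 0 in every pool, and choroid plexus markers are lowest in WT pool 1, at -1.28.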

How the data were processed

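RNA of whole hippocampus was hybridised to 1-colour Agilent arrays labelled with Cy5, with 3 pools a genotype. Per the file headers, the deposited values are spot intensity values from Agilent Feature Extraction 11.5.1.1 (version 11.5 per the submitters' processing notes), background-subtracted by that software in the processed signal, with flags for outlier spots and for signals well above background. No between-array scaling of these columns is recorded in the headers. Outlier spots were left out, spots of a probe averaged, and log2 of the deposited processed signal taken minus the 75th percentile of each array's non-control spots. 

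A probe was kept if all arrays of WT, or all of CKO, read it well above background, and a gene was read by its brightest kept probe. Of 39429 probes, 27459 were named through an accession in RefSeq's gene table (GRCm38.p6), 3543 through a symbol, 404 through a synonym, 50 as members by gene name, and 7973 kept the array's own name. The headers name another build, so no probe positions are given. The 18335 genes were fitted with limma 3.58.1 in R 4.3.3 (lmFit and eBayes with trend, two-sided, Benjamini-Hochberg adjustment over all genes, threshold 0.05), both arrays of pool 1 averaged. An exact permutation test of 3 against 3 pools cannot give a p below 0.1 and was not used. The fit was tested on simulated data.

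Pool numbers come from the sample titles. Deviations from the genotype means correlated at 0.549, 0.334 and 0.131 between same-numbered pools, above the required 0.1 in each, and the highest value among other pairs was 0.123. With the first arrays alone they were 0.0856, 0.0769 and 0.124, so that pools 1 and 2 fell short of 0.1. With all arrays used, the numbers were taken as pairs, and blocked values stand beside results whose call they change. Alternatives covered quantile and median scaling, normexp background with an offset of 50, the filter, the mean of probes, slide as a block and each of the 2 slides alone, 45 probes with a GAA-repeat run, the authors' series value table, arrays left out and each pool left out. That deposited table holds intensity values on a linear scale, ranked as the background-subtracted signal is (Spearman's rho 1), with array medians of 652 to 944, 4342 to 5314 empty spots an array, and a scaling that stays unknown.

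The members and lists were chosen with earlier results of these data known, so their direction is no independent evidence. Named were all members, Ctcf, and of each other list up to 3 measured genes with the smallest unadjusted p. Dim genes of these other lists, the measured cytokine genes and the remaining leukocyte genes set beside Lcn2 were named after their values were seen.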

Additional observations from a re-analysis of the deposited data

How the results depend on the processing

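Against 5 genes called in all, 3 were called after normexp background with quantile normalization, 3 from the series value table and 0 on slide 2 alone. The count was 103 with the replicate block, 69 with the block and quantile normalization, 56 with the block without GAA-repeat probes, 124 with the first arrays alone and 108 without the second array of WT pool 1. Chosen after seeing the data, the block gave 71 with the first arrays alone and 58 without the second array of WT pool 1, and no member in either. Leaving out each pool in turn gave 0 to 21 genes and 0 members. Members called were 2 with the block (Timp1 and Gfap), 1 with the block and quantile normalization (Gfap, with Timp1 at an adjusted p of 0.0528), 1 with the block without GAA-repeat probes (Timp1, with Gfap at 0.0583) and 1 with the first arrays alone (Emp1). The causes of these shifts were not tested. Settings that leave some arrays, pools or probes out also hold fewer samples or genes. The block changed the call of no other member. The adjusted p of Gfap ranged from 0.0386 to 1.00 over the alternatives, that of Timp1 from 0.0271 to 1.00 and that of Emp1 from 0.0425 to 1.00. The median of the other reactive members moved to 0.35 with no filter and 0.36 on slide 2, where the ischaemia-type median was -0.025. Leaving out pools, medians ranged from 0.37 to 0.63 (pan-reactive), 0.0047 to 0.22 (inflammation-type), 0.06 to 0.20 (ischaemia-type) and 0.17 to 0.37 (other). Signs turned for Fbln5 with median scaling (-0.015), Cd44 with the mean of its probes (0.16) and, on slide 2 alone, S1pr3 (-0.069), Gbp2 (-0.12), Fbln5 (-0.14), Srgn (-0.062), S100a10 (-0.043), Tm4sf1 (-0.025), Nes (-0.22), S100a6 (-0.23) and Synm (0.041). Without single pools the ranges crossed 0 for Lcn2 (-0.12 to 1.1), Fbln5 (-0.080 to 0.19), Cebpd (-0.018 to 0.31), Nes (-0.15 to 0.37) and S100a6 (-0.10 to 0.37). The 8 dim members are limited by signal over background.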

Other observations

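Other cell type lists gave values that the comparison of reactive astrocyte genes does not use. All 7 oligodendrocyte markers had higher means in CKO, with a median of 0.22 and medians of 0.33, 0.31 and 0.07 in pool numbers 1 to 3. Mobp, a myelin protein gene, read 3.55, 3.30 and 3.29 in WT and 3.88, 3.67 and 3.69 in CKO, a difference of 0.37 (SE 0.13) with an adjusted p of 0.777 in limma. Of 7 measured markers of hippocampal excitatory neurons, the cells in which Camk2a-Cre is active, 3 had higher and 4 lower means. Wfs1, a gene of CA1 pyramidal neurons, differed by -0.91 (SE 0.12), with an adjusted p of 0.119 in limma and 0.0164 with the pool number as a block. C1ql2, a gene of dentate granule neurons, differed by -1.1 (SE 0.30), with 0.479 and 0.0471. Slc17a7 went the other way, by 0.35 (SE 0.14), with 0.855 and 0.530, and every CKO pool was above every WT pool. The blocked values of Wfs1, C1ql2 and Slc17a7 were not read without the second array of WT pool 1.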
